A study of Mus musculus with 18 samples.

Results

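The genes described here are 39 genes of the lysosome, chosen by name: acid hydrolases, lysosomal membrane proteins, subunits of the proton pump, sorting factors and a secreted inhibitor of lysosomal proteases. Of these 39 genes, 37 had a probe set that named that gene alone, and all 37 passed the filter on dim genes, out of 11630 genes tested and 18194 genes named on the array. A gene with several such probe sets was represented by the brightest on average. Cd63, a tetraspanin of late endosomes and lysosomes, and Atp6v0c, which forms the proton-carrying ring of the pump, had no probe set paired with their name and were not analysed here.

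Expression was measured on 18 Affymetrix Mouse430_2 arrays in microglia, the macrophages of the brain, at embryonic stage E17.5 in mice of the C57BL/6 background. All groups shared the same source: embryonic hippocampi were pooled per pregnant dam and digested, cells with GFP knocked into Cx3cr1 were collected by sorting, and the sex of the embryos was recorded as unknown. An array thus stands for a litter pool and for the total RNA of the sorted cells. The values are log2 expression values after RMA, which subtracts background, puts arrays on a common scale and combines a set's probes.

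The LPS group (4 arrays) came from wild-type embryos of dams inflamed with lipopolysaccharide, a component of bacterial cell walls that triggers innate immunity. Its control was the PBS group (4 arrays), wild-type embryos of dams given buffer. The dose and the time of injection were not given in the sources used here. The DAP12KO group (4 arrays) held untreated DAP12-/- embryos, which lack the signalling adaptor encoded by Tyrobp, and its control was the UT group (6 arrays) of untreated wild-type embryos. The sample titles end in a year, written here as in the titles (_2008, _2010, _2012 or _2013). The LPS and the PBS group each had 1 array labelled _2008, 2 labelled _2010 and 1 labelled _2013, the DAP12KO arrays were all labelled _2013, and the UT group had 2 arrays labelled _2012 and 4 labelled _2013. What the label year marks was not given in the sources used here.

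Lysosomes break down proteins, glycans and lipids that reach them by endocytosis, phagocytosis or autophagy. Their enzymes work at low pH, which the V-ATPase maintains by pumping protons across the lysosomal membrane, and most of them reach the lysosome through a mannose 6-phosphate tag. Microglia clear dying cells and synaptic material in the developing brain, and many genes of this system are strongly expressed in macrophages. Transcription factors of the TFEB, TFE3 and MITF family bind E-box sequences in the promoters of many lysosomal genes.

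Tyrobp, the targeted gene, was at 13.80, 13.83, 13.75 and 14.23 log2 on the DAP12KO arrays, against 14.29 to 14.55 with a median of 14.50 on the UT arrays. Every DAP12KO array was below every UT array, with a fitted difference of −0.60 ± 0.13 log2 (SE; limma, adjusted p = 0.301), so the gene was lower but not absent. Where the probes of this set lie relative to the mutated part of the gene was not given in the sources used here, and the value therefore checks the labels only in part.

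The microglia markers were bright on all arrays, with a mean over 11 genes of 11.43 to 13.64 log2. Both PBS arrays labelled _2010 stood apart from the other 16 arrays. Their microglia marker means were 11.43 and 11.53, against 12.47 to 13.64 elsewhere, and Cx3cr1, the gene whose locus drives the sorted GFP, was at 10.86 and 10.75, against 12.11 to 13.53. The means of 15 neuron markers were 10.11 and 10.12 on these arrays, against 5.52 to 8.33 on the others, and those of 11 neural progenitor and radial glia markers were 10.83 and 10.91, against 5.86 to 8.72. The neuron marker Rbfox3 was at 9.45 on both. Next highest in both lists were the LPS arrays labelled _2010, with neuron marker means of 8.33 and 8.32 and progenitor marker means of 8.72 and 8.44. For LPS against PBS, counts of lysosomal genes above 0 are set out with and without both PBS arrays labelled _2010. The same holds for the fitted differences of the lysosomal genes whose LPS and PBS values are given per array. Counts by unadjusted p and by interval are given with all arrays only. The Gapdh 3′ minus 5′ difference, which is higher where the signal is more biased to the 3′ end of the RNA, was 2.01 to 3.33 log2 on the arrays labelled _2008 and _2010 and 0.89 to 2.23 on those labelled _2013. It was 1.31 and 2.77 on the UT arrays labelled _2012. In RNA from sorted pools, fewer cells of a type and less RNA per cell cannot be told apart. Monocyte and neutrophil markers (7 on the array) had means of at most 3.28, and Ngp, Elane and Ltf were near the floor, under log2 2.49, on all arrays. These means do not describe each gene. The 3 tested markers of this list differed between LPS and PBS within _2008 by −6.65 to 6.09 log2, with 1 array of each group.

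Promoter sequences were available for 33 of the 39 genes, from RefSeq on GRCm38.p6, each running from 250 bases before to 50 bases after a transcription start. The palindrome CACGTG, the core of the E-box, was found in 10 of the 33 genes (30.3%), against 8.09% of 27025 genes in the same table. These were Atp6v0d1, Atp6v1a, Ctsa, Ctsd, Ctsl, Gaa, Glb1, Lamp1, Lgmn and Mcoln1. The longer GTCACGTG, which holds the core and was searched on both strands, was found in 7 of the 33 genes (21.2%), against 2.55% of all genes. A match describes the letters in this window and does not show that a factor binds there. The promoters of 4 of these genes are printed in lower case with the E-box matches in capitals, because they show the range of arrangements: Lamp1 had 4 copies of the core, at −61, −45, −28 and −15 from the start site, Mcoln1 and Ctsd had 2 copies each of the longer form, and Lgmn, the gene with the lowest p between LPS and PBS, had 1 copy, beginning at −51 from the second of its annotated starts. All are written 5′ to 3′ on the strand of the gene.
Lamp1, chr8:13158911-13159210, plus strand: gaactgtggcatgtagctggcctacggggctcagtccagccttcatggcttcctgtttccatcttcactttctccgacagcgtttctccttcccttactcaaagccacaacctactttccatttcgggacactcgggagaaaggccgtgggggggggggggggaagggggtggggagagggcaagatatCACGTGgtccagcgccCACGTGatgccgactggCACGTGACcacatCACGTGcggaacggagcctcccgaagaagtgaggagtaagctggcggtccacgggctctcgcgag
Mcoln1, chr8:3500269-3500568, plus strand: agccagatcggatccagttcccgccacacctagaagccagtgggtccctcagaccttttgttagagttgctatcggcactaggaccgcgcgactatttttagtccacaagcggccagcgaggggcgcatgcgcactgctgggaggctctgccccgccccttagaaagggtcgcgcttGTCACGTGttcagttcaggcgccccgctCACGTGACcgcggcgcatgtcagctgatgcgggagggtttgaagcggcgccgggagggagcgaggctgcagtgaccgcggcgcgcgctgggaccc
Ctsd, chr7:142387778-142388077, minus strand: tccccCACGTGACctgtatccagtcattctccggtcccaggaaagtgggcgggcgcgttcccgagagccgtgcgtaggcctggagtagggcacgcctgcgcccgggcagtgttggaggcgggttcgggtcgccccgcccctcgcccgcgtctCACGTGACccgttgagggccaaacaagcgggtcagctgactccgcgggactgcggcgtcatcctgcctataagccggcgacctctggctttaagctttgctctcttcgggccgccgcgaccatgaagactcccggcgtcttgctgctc
Lgmn, chr12:102439043-102439342, minus strand: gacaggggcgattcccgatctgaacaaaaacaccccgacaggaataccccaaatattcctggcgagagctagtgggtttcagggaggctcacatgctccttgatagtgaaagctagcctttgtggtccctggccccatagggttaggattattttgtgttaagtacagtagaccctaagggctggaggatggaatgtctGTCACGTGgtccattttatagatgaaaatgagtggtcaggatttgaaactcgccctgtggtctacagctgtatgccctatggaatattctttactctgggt

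Acp5, the gene with the largest difference between DAP12KO and UT, had no CACGTG in any of its 3 annotated promoters. The related motif TCATGTG, known as the M-box of MITF target genes, was searched on both strands after the values had been seen, and it was found in 8 of 33 genes (24.2%), against 4.31% of all genes. In Acp5 it lay on the opposite strand, beginning at −90 from the third of the annotated starts, and it is in capitals in the sequence.
Acp5, chr9:22130549-22130848, minus strand: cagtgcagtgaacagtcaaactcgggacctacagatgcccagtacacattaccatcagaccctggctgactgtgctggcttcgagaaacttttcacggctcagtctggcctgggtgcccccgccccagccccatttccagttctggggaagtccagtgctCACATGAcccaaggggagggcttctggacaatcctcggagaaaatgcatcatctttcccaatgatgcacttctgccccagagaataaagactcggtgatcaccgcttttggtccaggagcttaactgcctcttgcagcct

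The 37 genes differed in how much they varied over the arrays. The SD over all 18 arrays was under 0.5 log2 for 17 genes and over 1 for 7. Grn, which encodes progranulin, the precursor of the granulins, had the lowest SD, with 15.01 to 15.66 log2 (SD 0.17). These SDs are of the brightest probe set of each gene, and 2 dimmer Grn probe sets differed more between LPS and PBS, by 0.36 and 0.41, against 0.22 for the brightest. The cystatin Cst3 (SD 0.18), cathepsin L (Ctsl, 0.20) and the cholesterol carrier Npc2 (0.24) followed. Neu1, the lysosomal sialidase, varied most, with 2.98 to 9.73 (SD 2.06), followed by Acp5 (1.92), the beta-galactosidase Glb1 (1.49) and the glycogen-degrading glucosidase Gaa (1.33). For 28 of the 37 genes the lowest of the 18 arrays was PBS replicate 1 or 2 labelled _2010.

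**Figure D1:**
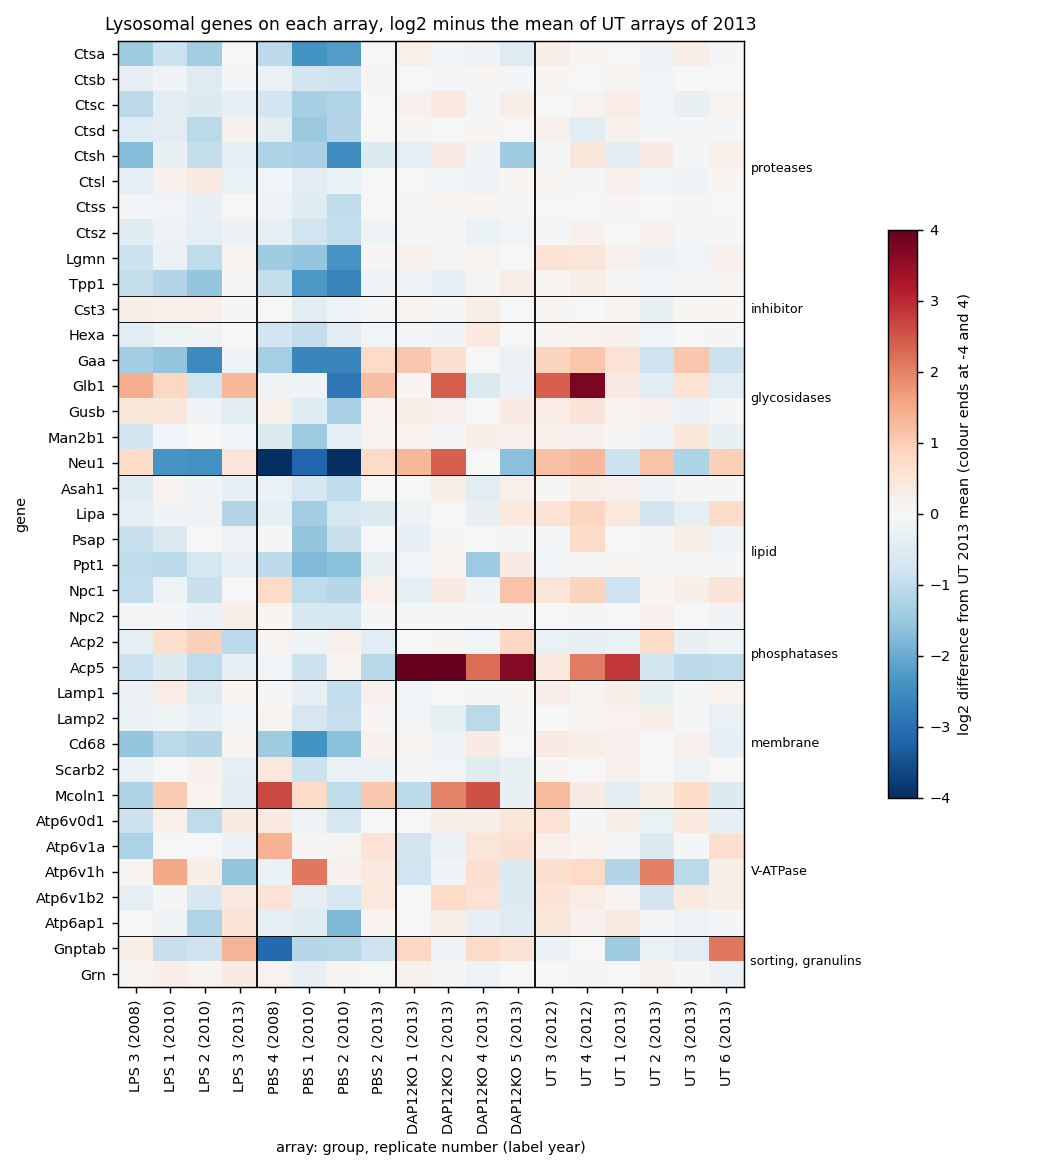
Each cell is the log2 value of a lysosomal gene (rows, by functional subgroup) on an array (columns, by group, replicate and label year) minus the mean of the 4 UT arrays labelled _2013. The PBS columns labelled _2010 are blue for most enzymes, the DAP12KO and UT columns are pale apart from Acp5 and a few variable genes, and Acp5 is red in all 4 DAP12KO columns, in UT replicate 1 of _2013 and in UT replicate 4 of _2012.

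Setting LPS against PBS addresses the effect of maternal inflammation on embryonic microglia. No lysosomal gene passed the adjusted threshold, and the direction of 19 of the 37 differences was the opposite without both PBS arrays labelled _2010. None of the 37 lysosomal genes passed an adjusted p of 0.05 in limma (0 of 37), against 11 of 11630 genes (0.0946%), 1 of them higher with LPS (0.0086%) and 10 lower (0.086%). Without both PBS arrays labelled _2010, 9 genes passed, 8 higher and 1 lower. An unadjusted p under 0.05 was found for 9 of 37 (24.3%), 8 higher and 1 lower, against 12.4% of all genes, of which 3.47% were higher and 8.98% lower. The fitted difference was above 0 for 30 of 37 genes, with a median of 0.26 log2, against 42.3% of all genes and a median of −0.12. The 95% interval of the difference lay within 1 log2 of 0 for 20 of 37 genes and within 0.5 for 3. With both PBS arrays labelled _2010 left out, 13 of 37 were above 0, the median was −0.16 and 0 passed. Over all genes 44.6% were above 0 in that fit, with a median of −0.08. With the year as a term, the LPS arrays labelled _2010 then have no PBS array of their year. The fit without both PBS arrays thus rests on _2008 and _2013, with 1 array of each group per year. It is not separate from the values within those years.

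**Figure D2:**
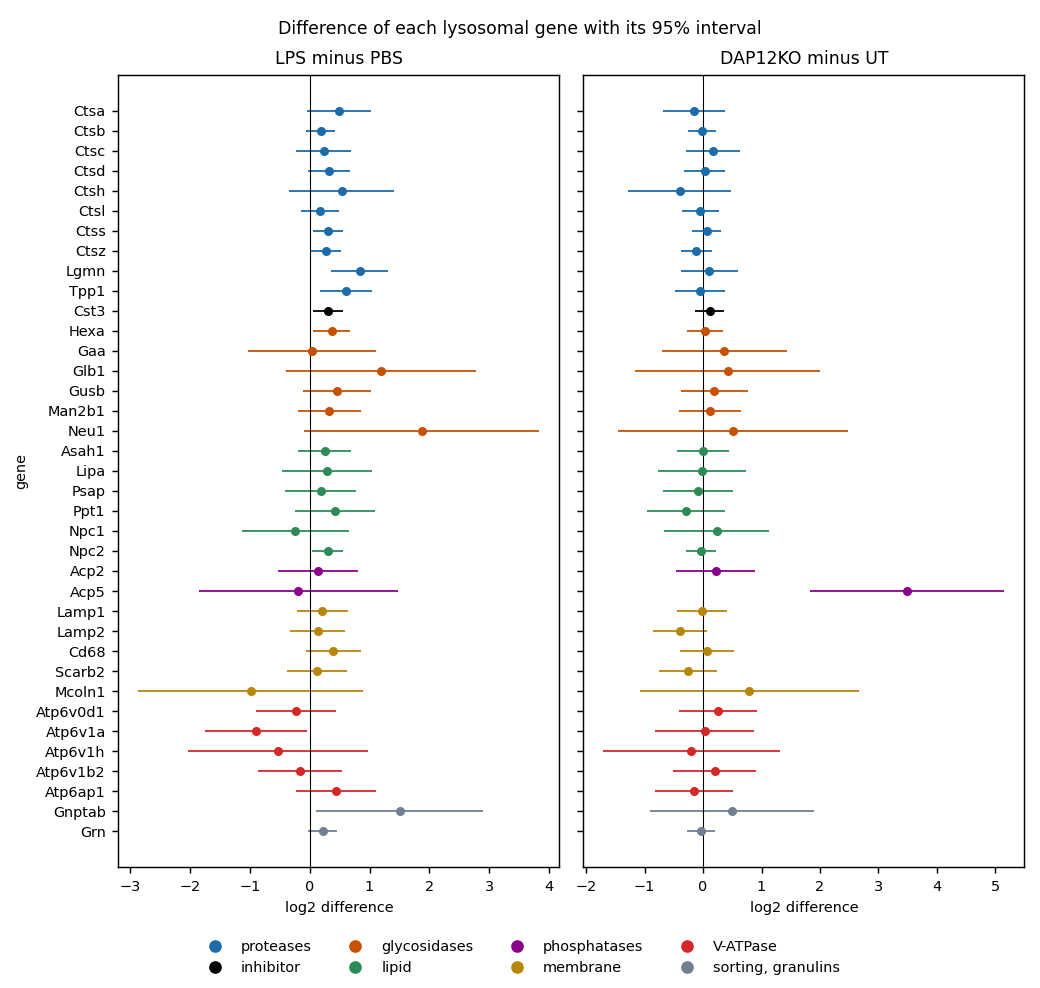
Points are fitted log2 differences and bars their 95% intervals, for LPS minus PBS (left) and DAP12KO minus UT (right), with genes coloured by subgroup. On the left all proteases and glycosidases lie right of 0 and 4 of 5 V-ATPase subunits left of it, with none passing the adjusted threshold. On the right most points lie close to 0 and Acp5 stands at 3.49.

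Among the proteases all 10 differences were above 0, between 0.17 and 0.83 log2, with a median of 0.31. An unadjusted p under 0.05 in limma was found for 4 of 10, against 12.4% of all genes (3.47% higher and 8.98% lower). Without both PBS arrays labelled _2010, 4 of 10 were above 0, with a median of −0.08. Legumain (Lgmn), an asparagine-specific endopeptidase that processes cathepsins, was at 12.81 (_2008), 13.38 and 12.65 (_2010) and 13.81 (_2013) on the LPS arrays, against 12.24 (_2008), 12.10 and 11.29 (_2010) and 13.69 (_2013) on the PBS arrays. Each LPS array was above the PBS mean of its year, while the groups as a whole overlapped. The fitted difference of 0.83 ± 0.23 log2 (standard error, 4 arrays in each group, adjusted p = 0.169) was 0.57 within _2008, 1.33 within _2010 and 0.12 within _2013, and 0.34 (adjusted p = 0.568) without both PBS arrays labelled _2010. Lgmn passed the threshold when LPS replicate 3 or PBS replicate 2 labelled _2013 was left out (1.07 log2 in each case, adjusted p = 0.0499 and 0.0497). In these fits 119 and 120 of 11630 genes passed, against 11 with all arrays. Either omission takes _2013, the year with the smallest Lgmn difference, out of the comparison, so these fits are not separate checks.

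Tripeptidyl peptidase 1 (Tpp1), which removes tripeptides from protein ends, was at 12.56 (_2008), 12.32 and 11.95 (_2010) and 13.55 (_2013) on the LPS arrays, against 12.55, 11.21 and 10.86, and 13.36 on the PBS arrays of the same years. The values of _2008 differed by 0.01 log2, those of _2010 by 1.10 on average and those of _2013 by 0.18. Its fitted difference of 0.60 ± 0.20 (adjusted p = 0.26) was 0.10 without both PBS arrays labelled _2010. A further Tpp1 probe set gave 0.91 ± 0.25.

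Cathepsin S (Ctss), a cysteine protease prominent in antigen presentation, was at 14.99, 14.92, 14.74 and 15.02 on the LPS arrays of _2008, _2010, _2010 and _2013, against 14.84, 14.56, 14.02 and 15.06 on the PBS arrays. Both PBS arrays labelled _2010 were the lowest, and in _2013 the PBS array was the higher by 0.03. The fitted difference was 0.30 ± 0.12 (adjusted p = 0.312), and 0.06 without those arrays. Cathepsin Z (Ctsz), a carboxypeptidase, was at 14.83, 15.10, 14.94 and 15.08 with LPS, against 14.91, 14.52, 14.34 and 15.13 with PBS. The direction differed between years, with −0.08 within _2008, 0.59 within _2010 and −0.05 within _2013, and the fitted 0.26 ± 0.12 (adjusted p = 0.389) turned to −0.07 without both PBS arrays labelled _2010.

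The other proteases were cathepsin A (Ctsa, 0.49 ± 0.25 log2), which also stabilizes Glb1 and Neu1, the aspartic protease cathepsin D (Ctsd, 0.31 ± 0.16), the aminopeptidase cathepsin H (Ctsh, 0.54 ± 0.41), the dipeptidyl peptidase cathepsin C (Ctsc, 0.23 ± 0.22) and the endopeptidases cathepsin B (Ctsb, 0.18 ± 0.11) and cathepsin L (Ctsl, 0.17 ± 0.15). Without both PBS arrays labelled _2010 they were −0.19 for Ctsa, 0.05 for Ctsd, −0.19 for Ctsh, −0.30 for Ctsc, −0.09 for Ctsb and −0.26 for Ctsl. All 6 were above 0 within _2010, by 0.45 to 1.27, and all 6 were below 0 within _2008, by −0.52 to −0.05. The dimmest of the 5 Ctsb probe sets gave 1.67 ± 0.38, the lowest adjusted p of the 80 probe sets of these genes when every probe set was fitted separately (0.107).

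Cystatin C (Cst3), a secreted inhibitor of cysteine cathepsins, was at 15.00 (_2008), 14.98 and 15.00 (_2010) and 14.73 (_2013) on the LPS arrays, against 14.81, 14.34 and 14.60, and 14.73 on the PBS arrays. The LPS array of _2013 was the low value of its group and equalled its PBS counterpart to 2 decimals. The fitted difference was 0.31 ± 0.12 log2 (adjusted p = 0.303), and 0.10 without both PBS arrays labelled _2010.

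All 6 glycosidases had a difference above 0, with a median of 0.41 log2, and 3 of 6 without both PBS arrays labelled _2010, with a median of 0.02. Hexa, the alpha subunit of beta-hexosaminidase, which degrades gangliosides, was at 14.02, 14.27, 14.35 and 14.44 on the LPS arrays of _2008, _2010, _2010 and _2013, against 13.70, 13.52, 14.04 and 14.37 on the PBS arrays. Each LPS array exceeded the PBS mean of its year. The difference was 0.36 ± 0.14 (adjusted p = 0.318), with 0.32, 0.53 and 0.07 within the 3 years and 0.20 without the stated arrays. Neu1 had the largest difference and the widest interval of the list, 1.87 ± 0.93 with an interval of −0.10 to 3.84, since within _2008 it differed by 4.99 and within _2013 by −0.26. Glb1 stood 1.19 ± 0.75 higher, beta-glucuronidase (Gusb) 0.45 ± 0.27, the alpha-mannosidase Man2b1 0.33 ± 0.25 and Gaa 0.04 ± 0.51, all 4 with intervals that included 0. In the fit that leaves out the PBS arrays labelled _2010, Neu1 was at 2.36, Glb1 at 0.85, Gusb at −0.16, Man2b1 at −0.21 and Gaa at −0.48.

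The lipid group comprises acid ceramidase (Asah1), lysosomal acid lipase (Lipa), prosaposin (Psap, precursor of sphingolipid activators), the thioesterase Ppt1, which removes palmitate from proteins, and the cholesterol exporters Npc1 and Npc2. Of these 6 genes, 5 had a difference above 0 (median 0.27 log2), and 1 of 6 without both PBS arrays labelled _2010 (median −0.32). Npc2, the soluble carrier that hands cholesterol to Npc1, was at 13.98, 14.02, 13.85 and 14.33 on the LPS arrays of _2008, _2010, _2010 and _2013, against 14.13, 13.43, 13.38 and 14.04 on the PBS arrays. In _2008 the PBS array was the higher by 0.16. The fitted difference of 0.30 ± 0.12 (adjusted p = 0.333) was 0.07 without the stated arrays. Ppt1 stood 0.42 ± 0.31 higher, Lipa 0.29 ± 0.35, Asah1 0.25 ± 0.21 and Psap 0.19 ± 0.28, and Npc1 was at −0.24 ± 0.42. Leaving out the same arrays gave −0.0023 for Ppt1, −0.32 for Lipa, −0.33 for Asah1, −0.56 for Psap and −1.01 for Npc1.

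Among the membrane proteins, differences were 0.21 ± 0.20 log2 for Lamp1 and 0.13 ± 0.22 for Lamp2, the abundant glycoproteins that line the lysosomal membrane. The macrophage glycoprotein Cd68 was at 0.40 ± 0.22, Scarb2, which carries glucocerebrosidase to lysosomes, at 0.12 ± 0.23, and the calcium channel Mcoln1 at −0.99 ± 0.88. All 5 were above 0 within _2010 (0.52 to 0.90) and all 5 below 0 within _2008 and within _2013, and 0 of 5 were above 0 without both PBS arrays labelled _2010.

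Of the V-ATPase subunits 1 of 5 had a difference above 0, with a median of −0.23 log2. No test compared them with the other genes of the list. Atp6v1a, the catalytic subunit that hydrolyses ATP, was at 10.37 (_2008), 11.64 and 11.64 (_2010) and 11.39 (_2013) on the LPS arrays, against 13.02, 11.69 and 11.74, and 12.21 on the PBS arrays. All 4 LPS arrays were below all 4 PBS arrays. This was the case for 1 of the 37 genes, Atp6v1a itself, and for 1.36% of all genes. The arrays of _2010 differed by −0.07, those of _2013 by −0.81 and those of _2008 by −2.65, so that the fitted difference of −0.90 ± 0.40 (adjusted p = 0.372) was −1.73 without both PBS arrays labelled _2010 and −0.32 at its weakest with 1 array left out. A second Atp6v1a probe set gave −0.48 ± 0.60. The other members were Atp6v0d1, which joins the membrane and cytosolic sectors (−0.23 ± 0.31), the cytosolic Atp6v1b2 (−0.17 ± 0.33), the regulatory Atp6v1h (−0.53 ± 0.71) and the accessory protein Atp6ap1 (0.43 ± 0.32). Without both PBS arrays labelled _2010 the count above 0 was again 1 of 5, with a median of −0.51.

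Of the sorting genes and phosphatases, Gnptab, which makes the mannose 6-phosphate tag in the Golgi, was at 9.69 (_2008), 8.51 and 8.6 (_2010) and 10.78 (_2013) on the LPS arrays, against 6.33, 8.29 and 8.33, and 8.61 on the PBS arrays. The PBS array of _2008 was far below the other 3, and the groups overlapped by 1 PBS array, that of _2013. The fitted difference of 1.5 ± 0.66 log2 (adjusted p = 0.362) was 2.76 without both PBS arrays labelled _2010, but 2 further Gnptab probe sets gave −0.64 ± 0.74 and −0.62 ± 0.62. Grn stood 0.22 ± 0.11 higher and the acid phosphatase Acp2 0.14 ± 0.32, and without both PBS arrays labelled _2010 they were at 0.12 and −0.53. Acp5, tartrate-resistant acid phosphatase, was dim in both groups, at 2.45 to 3.15 with LPS and 2.36 to 3.56 with PBS. Its difference was −0.19 ± 0.78, and 0.01 without both PBS arrays labelled _2010.

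Within the label years, 12 of 37 differences were above 0 in _2008 (median −0.13 log2), 34 of 37 in _2010 (median 0.59) and 13 of 37 in _2013 (median −0.08). Over all genes 43.9%, 42.1% and 39.9% were above 0 in these years, with medians of 0, −0.11 and −0.06. The years _2008 and _2013 held 1 array of each group, so these values have no test of their own. By subgroup, the proteases had medians of −0.07, 0.69 and −0.03 in _2008, _2010 and _2013, the membrane proteins −0.37, 0.67 and −0.14, and the V-ATPase −0.94, 0.01 and −0.07. Of the microglia markers 11 of 11 were above 0 in the fit (median 0.62), and their medians were −0.07 within _2008, 0.98 within _2010 and 0.03 within _2013, and −0.02 (5 of 11 above 0) without both PBS arrays labelled _2010. Of the neuron markers 1 of 15 was above 0 (median −1.18), with medians of 0.0 within _2008, −1.64 within _2010, −0.42 within _2013 and −0.28 without those arrays. Of the neural progenitor and radial glia markers 1 of 11 was above 0 (median −1.62), with medians of 0.0, −2.88 and −0.03 within the years and −0.35 without those arrays. The part of these other cells in the lysosomal differences was not tested.

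**Figure D3:**
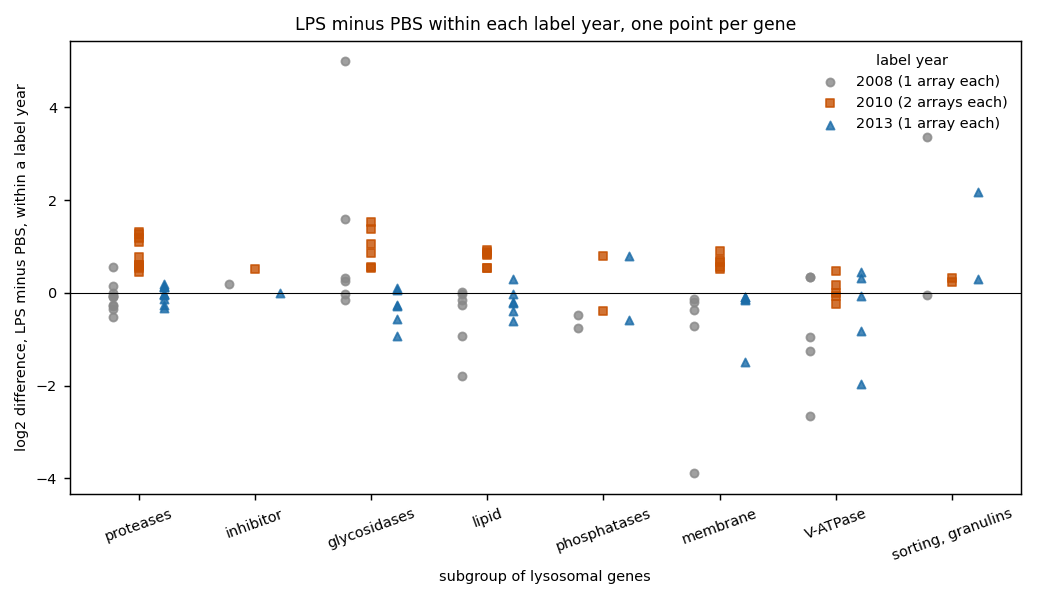
Each point is the log2 difference of a lysosomal gene, LPS minus PBS, within a label year, by subgroup. The _2010 points (squares) lie above 0 for all proteases, glycosidases, lipid and membrane genes, while the _2008 and _2013 points spread around or below 0.

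**Figure D4:**
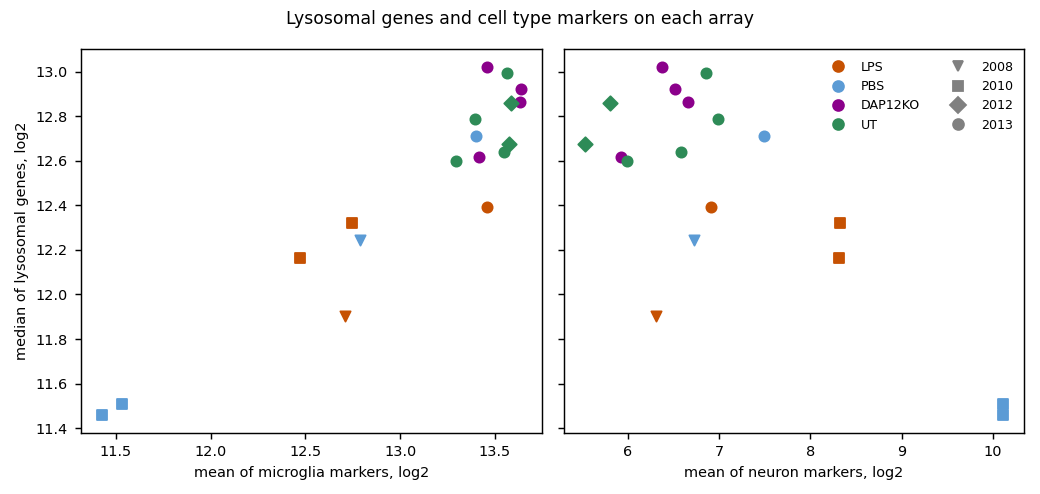
The median of the 37 lysosomal genes on each array (vertical axis, log2) is plotted against the mean of the microglia markers (left) and of the neuron markers (right), with colour for the group and shape for the label year. Both PBS arrays labelled _2010 lie at the lower left of the first panel and the lower right of the second, with lysosomal medians of 11.46 and 11.51, against 11.90 to 13.02 on the other 16 arrays.

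On the array scale, the median of the 37 genes was 11.90, 12.32, 12.16 and 12.39 log2 on the LPS arrays of _2008, _2010, _2010 and _2013, against 12.24, 11.46, 11.51 and 12.71 on the PBS arrays. It was 12.62 to 13.02 on the DAP12KO arrays, against 12.60 to 13 on the UT arrays. The pairs of groups were spread differently over the label years, and levels were not compared across them.

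A wider set of 71 lysosomal genes outside the list, of which 62 were tested, was read from the same fit. The difference between LPS and PBS was above 0 for 44 of 62 (median 0.23 log2) and for 29 of 62 without both PBS arrays labelled _2010 (median −0.05). No gene passed (0 of 62), against 0.0946% of all genes. An unadjusted p under 0.05 in limma was found for 6 of 62, against 1447 of 11630 genes (12.4%). The lowest p belonged to Atp6v0a1, a membrane-embedded subunit of the V-ATPase that forms the path of the protons together with the ring. It was at 11.75, 12.24, 12.26 and 12.57 on the LPS arrays of _2008, _2010, _2010 and _2013, against 10.73, 11.42, 11.27 and 11.59 on the PBS arrays. All LPS arrays were above all PBS arrays, as was the case for 0.602% of all genes. The fitted difference of 0.95 ± 0.27 (interval 0.38 to 1.53, adjusted p = 0.181) was 1.03 within _2008, 0.90 within _2010 and 0.98 within _2013, and 1.00 (adjusted p = 0.307) without both PBS arrays labelled _2010.

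Its paralog Atp6v0a2 was at 8.86, 8.43, 8.53 and 10.56 on the LPS arrays of the same years, against 7.35, 7.03, 7.18 and 10.10 on the PBS arrays. LPS was the higher in each year, and the groups overlapped because both arrays of _2013 were high. The difference was 1.18 ± 0.45 log2 (adjusted p = 0.305), and 0.99 without the PBS arrays of _2010. Rragd, a Rag GTPase that recruits mTORC1 to lysosomes, was at 4.03, 8.97, 8.68 and 8.41 with LPS, against 8.53, 11.52, 10.73 and 8.0 with PBS. Its highest values were those of both PBS arrays of _2010, and the difference of −2.17 ± 0.86 (adjusted p = 0.319) was −2.05 without those arrays and turned to 0.40 within _2013. Over the V-ATPase subunits of both lists, pooled after the values had been seen, 9 of 16 differences were above 0 (median 0.03), and 7 of 16 without both PBS arrays labelled _2010 (median −0.10). Atp6v1d, a subunit of the rotor, was at 0.45 ± 0.28, and at 0.80 without both PBS arrays labelled _2010.

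The comparison of DAP12KO with UT asks what the loss of the adaptor changes in otherwise untreated microglia. Acp5 was higher in the DAP12KO group by 3.49 log2 without passing the adjusted threshold, and the other 36 lysosomal genes differed by −0.40 to 0.79. With the year as a term in the fit, the UT arrays of _2013 set the difference. No gene of the list passed (0 of 37), as did no gene at all (0.0% of 11630), and 1 of the 37 (Acp5, higher) had an unadjusted p under 0.05 in limma, against 637 of all genes (5.48%), of which 2.98% were higher and 2.5% lower. The groups did not overlap for 0 of the 37, against 0.224% of all genes apart with DAP12KO higher and 0.576% with DAP12KO lower. The difference was above 0 for 21 of 37, with a median of 0.03, against 51.5% of all genes and a median of 0.02. For 34 of 37 it lay within 0.5 log2 of 0. The 95% interval lay within 1 log2 of 0 for 28 of 37 genes and within 0.5 for 12.

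Acp5 encodes tartrate-resistant acid phosphatase, an enzyme of lysosomes and of secretory vesicles that is best known from osteoclasts. It was at 7.48, 7.55, 5.71 and 7.16 log2 on the DAP12KO arrays. On the UT arrays it was at 6.30, 2.74, 2.42 and 2.45 in _2013 and at 3.87 and 5.54 in _2012. UT replicate 1 of _2013 was above DAP12KO replicate 4, so the groups overlapped, while the other 5 UT arrays were below all DAP12KO arrays. The DAP12KO mean was 6.97 ± 0.86 (SD, n = 4), against 3.89 ± 1.68 over all UT arrays (n = 6) and 3.48 ± 1.89 over those of _2013 (n = 4). The fitted difference of 3.49 ± 0.78 had an interval of 1.83 to 5.16 and an adjusted p of 0.375. Of the 4 UT arrays of _2013, 2 were under the log2 2.49 filter for dim genes and 1 more was at 2.74, near the lowest values of the scale, so the size of the difference is imprecise at its lower end. Leaving out UT replicate 1 of _2013, the only UT array that overlapped the DAP12KO arrays, gave 4.44 (adjusted p = 0.011), past the threshold. In that fit 4 of 11630 genes passed. The values with 1 array left out otherwise reached down to 3.14. The array carries 1 probe set for Acp5.

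**Figure D5:**
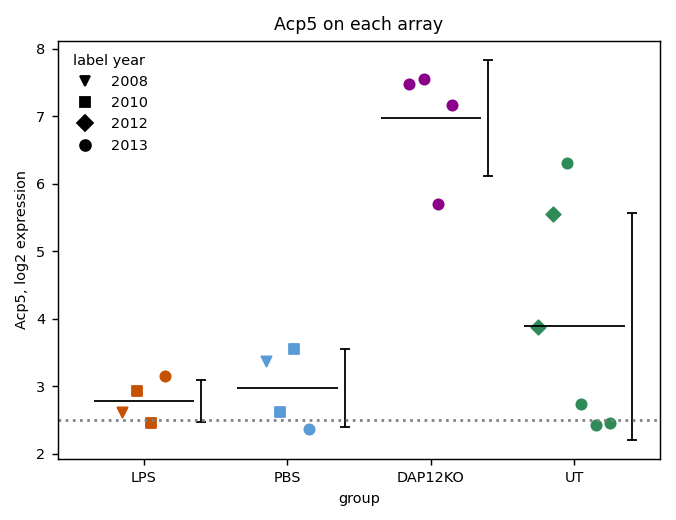
Points are Acp5 log2 values per array, with shape for the label year, lines the group means, bars 1 SD and the dotted line the filter on dim genes at log2 2.49. The 4 DAP12KO arrays lie between 5.71 and 7.55 and overlap only with UT replicate 1 of _2013 at 6.30, while the LPS and PBS arrays lie near the dotted line.

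Markers of border-associated macrophages, the macrophages of the meninges and perivascular spaces, were read from the same fit. None of the 6 had a difference above 0 (median −1.53 log2), and their mean was 9.57 to 10.04 on the DAP12KO arrays, against 9.76 to 12.41 on the UT arrays. Microglia markers were above 0 in 7 of 11 (median 0.02) and neuron markers in 3 of 15 (median −0.33). The part of these cells in the Acp5 difference was not tested.

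Among the membrane proteins Lamp2, which also serves chaperone-mediated autophagy, was at 13.58, 13.32, 12.62 and 13.63 on the DAP12KO arrays, against 13.41 to 13.91 with a median of 13.74 on the UT arrays. The ranges overlapped, and DAP12KO replicate 4 was the lowest of all arrays. The difference was −0.40 ± 0.22 log2 (interval −0.87 to 0.06, adjusted p = 0.908). Scarb2 was at 12.20, 12.16, 11.79 and 11.99, against 12.08 to 12.48 with a median of 12.29 on the UT arrays. All 4 DAP12KO arrays were below the UT mean of _2013, by a fitted −0.25 ± 0.23 (adjusted p = 0.933). Lamp1 differed by −0.02 ± 0.20, Cd68 by 0.07 ± 0.22 and Mcoln1 by 0.79 ± 0.88.

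Of the proteases 4 of 10 differences were above 0, with a median of −0.03 log2. Ctsh was at 11.36, 12.08, 11.60 and 10.33 on the DAP12KO arrays, against 11.28 to 12.18 with a median of 11.83 on the UT arrays. Its difference of −0.40 ± 0.41 (adjusted p = 0.947) came with 1 DAP12KO array, replicate 5, below all others. Ctsz was at 15.27, 15.26, 15.05 and 15.20, against 15.22 to 15.47 with a median of 15.28, and differed by −0.11 ± 0.12 (adjusted p = 0.952). Ctss, at 15.09 to 15.12 on the DAP12KO arrays and 14.98 to 15.10 on the UT arrays, differed by 0.07 ± 0.12, with an interval of −0.18 to 0.31, among the narrower ones of the list. Cst3 was at 14.93, 14.83, 15.03 and 14.79, against 14.48 to 14.92 with a median of 14.86, and differed by 0.11 ± 0.12 (adjusted p = 0.947).

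The glycosidases were above 0 in 6 of 6, by 0.04 to 0.51 log2, each with an interval that included 0, and Hexa, the most precise, was at 0.04 ± 0.14. Over 19 alternative fits the sign was the opposite in 4 for Hexa, 2 for Glb1 and 1 for Neu1. It was the opposite in 0 for Gaa, Gusb and Man2b1. Further probe sets gave −0.04 for Gusb, −0.08 for Neu1, 0.08 for Gaa and 0.91 for Man2b1. The lipid genes were above 0 in 2 of 6, from −0.29 ± 0.31 for Ppt1 to 0.23 ± 0.42 for Npc1. Differences of the V-ATPase subunits were −0.20 ± 0.71 for Atp6v1h, −0.15 ± 0.32 for Atp6ap1, 0.02 ± 0.40 for Atp6v1a, 0.20 ± 0.33 for Atp6v1b2 and 0.26 ± 0.31 for Atp6v0d1. Gnptab was at 10.26, 9.29, 10.19 and 9.99 on the DAP12KO arrays, against 8.01 to 11.55 with a median of 9.19 on the UT arrays, and differed by 0.50 ± 0.66, while Grn differed by −0.03 ± 0.11.

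In the wider set, 30 of 62 genes were above 0 in DAP12KO (median −0.06 log2) and 0 passed. The lowest p belonged to Lamtor1, the membrane anchor of the Ragulator complex, which was at 13.42, 13.57, 13.48 and 13.67 on the DAP12KO arrays, against 13.65 to 14.00 with a median of 13.87 on the UT arrays. The ranges overlapped by DAP12KO replicate 5 and UT replicate 3 of _2013, and the difference was −0.31 ± 0.12 (adjusted p = 0.854). Hgsnat, which acetylates heparan sulfate during its breakdown, stood 1.16 ± 0.67 higher, at 7.90, 7.76, 9.80 and 8.70, against 6.52 to 8.59 with a median of 7.34. Atp6v1d was at 11.00, 12.64, 12.41 and 12.35, against 12.48 to 12.69 with a median of 12.64, and differed by −0.48 ± 0.28 (adjusted p = 0.908 for both genes).

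The difference between the responses, LPS minus PBS less DAP12KO minus UT, tests directly whether a gene responded differently to maternal inflammation and to loss of DAP12. None of the 37 genes passed (0 of 37), against 0.0% of all genes, and 4 had an unadjusted p under 0.05 in limma (10.8%), 3 above 0 and 1 below, against 8.11% of all genes, of which 2.32% were above 0 and 5.79% below. The lowest p belonged to Acp5, at −3.69 ± 1.11 log2 (interval −6.04 to −1.34, adjusted p = 0.544). Lgmn followed with 0.73 ± 0.32 and Tpp1 with 0.65 ± 0.29 (adjusted p = 0.592 for both), then Ctsz with 0.38 ± 0.17 (adjusted p = 0.602). Lgmn was at 13.68 to 13.82 on the DAP12KO arrays, against 13.43 to 14.21 on the UT arrays, and Tpp1 at 13.18 to 13.77, against 13.41 to 13.74. The contrast was above 0 for 28 of 37 genes (median 0.26), against 42.3% of all genes (median −0.17). Without both PBS arrays labelled _2010 it was above 0 for 14 of 37 (median −0.11), against 44.1% of all genes (median −0.14). Without those arrays it was 0.24 for Lgmn, 0.15 for Tpp1, 0.05 for Ctsz and −3.48 for Acp5.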

How the data were processed

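Per the labels' protocols, the sorted cells' RNA came from a miRNeasy kit, was amplified by Ovation Pico WTA v2 and was labelled by Encore Biotin. The values the authors deposited are log2 expression values for 45101 probe sets, made with RMA per the submitters' processing notes. The RMA version was not given in the sources used here. The lowest value is log2 2.19, and array medians lie between 2.78 and 3.17. The number of arrays limits the precision.

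Of the probe sets, 34958 named 1 gene, 932 several and 9211 none in the platform annotation. Of those with 1 gene, 34754 had an identifier in the RefSeq gene table, and 0 symbols were updated. The probe set with the highest mean stood for a gene, and genes under the 40th percentile of mean values (log2 2.49) were left out. All 18 arrays were fitted in limma 3.58.1 (R 4.3.3) with a mean per group, label year as an additive term and an intensity trend, two-sided, with Benjamini-Hochberg adjustment over all tested genes and a threshold of 0.05. The p-values measure the spread between arrays, each a pool of a litter. The alternatives changed the year term, the arrays fitted, the filter, the probe set rule, centring, array weights and the replicate block, and left out arrays. Intervals cover 95%. Plots used Python 3.11.15 with matplotlib 3.10.9.

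Values per array are given for the 6 genes of the list with the lowest p in each comparison, the 4 with the lowest p in the difference of the responses, the one with the lowest p of each subgroup in either comparison, any past the threshold, and the 3 genes of the wider lysosome list with the lowest p in each comparison, with Tyrobp, Cx3cr1 and Rbfox3 beside them. The genes, lists and markers were chosen with earlier results of these data known. The subgroups of markers with the fewest genes tested were choroid plexus (2) and erythroid cells (1), whose differences for LPS minus PBS had medians of −1.08 and −0.01, beside −0.46 for endothelium (3), −0.78 for monocytes and neutrophils (3) and −0.40 for border-associated macrophages (6). For DAP12KO minus UT these medians were −0.95, −0.43, 0.41, 0.32 and −1.53, and that of neural progenitors −0.16.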

Additional observations from a re-analysis of the deposited data

Results flagged for a closer look

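In 6 of 152 gene and group combinations, the 37 genes and Tyrobp in each of the 4 groups, an array stood apart from its group by a gap that exceeds Dixon's critical value. Chance flags about 1 in 20 such groups. Gnptab was at 6.33 log2 in PBS replicate 4 of _2008, against 8.29 to 8.61 in the other PBS arrays. In UT replicate 2 of _2013, Atp6v1b2 was at 10.70 (11.57 to 11.99 in the other UT arrays), Acp2 at 12.33 (11.27 to 11.43) and Cst3 at 14.48 (14.79 to 14.92). This array accounted for 3 of the 6, and it also had the highest Gapdh 3′ minus 5′ difference of the arrays labelled _2013, at 2.23 log2, the part of which was not tested. Cst3 was at 14.73 in LPS replicate 3 of _2013, against 14.98 to 15.00 in the other LPS arrays, and Tyrobp was at 14.23 in DAP12KO replicate 5, against 13.75 to 13.83.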

How the results depend on the processing

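The count of genes passing between LPS and PBS, 11, was 0 with no year term, with only these groups in the fit, with a filter at the 60th percentile and with each array centred on its median. It was 1 with no filter, 6 with the mean over all probe sets of a gene, 5 without the 4 arrays labelled _2010 and 826 with array weights. With the replicate block it was 13, with 0 of the lysosomal genes, and no count or call of a lysosomal gene in the other contrasts changed. Same-numbered arrays deviated alike in _2010 (r = 0.53 between LPS and PBS) but not in DAP12KO and UT (−0.01 and 0.01). The numbers were not taken as pairs in the main fit. The replicate block joined arrays of the same year and number over all groups, and pairing of the arrays labelled _2010 alone was not tested. Centring moved the median of all genes between LPS and PBS to 0.15, against −0.12, and the share above 0 to 58.1%, against 42.3%. It takes the same value from every gene of an array, so the lysosomal differences moved by the same amount. Array weights, which weight arrays by their agreement, called 7 of 37 lysosomal genes between LPS and PBS, against 826 of 11630 genes, 231 of them higher. The 7 were Ctsa, Ctss, Ctsz, Lgmn, Npc2, Tpp1 and Cst3. That fit kept both PBS arrays labelled _2010. Without those arrays, and unweighted, the differences were −0.19 log2 for Ctsa, −0.07 for Ctsz, 0.06 for Ctss and 0.34 for Lgmn. They were 0.07 for Npc2, 0.10 for Tpp1 and 0.10 for Cst3.

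Without both PBS arrays or without all 4 arrays labelled _2010, 13 of 37 lysosomal genes were above 0 between LPS and PBS, with a median of −0.16, and in the difference of the responses 14 of 37, with a median of −0.11. Within _2008 it was 12 (median −0.13) and within _2013 it was 13 (median −0.078). Over up to 18 alternative fits, 24 of 37 lysosomal genes had a difference of the opposite sign at least once between LPS and PBS, and over up to 19 fits 22 of 37 between DAP12KO and UT. Among the genes given per array in each comparison, the sign was the opposite between LPS and PBS for Ctss within _2013 (−0.032), Npc2 within _2008 (−0.16), Rragd within _2013 (0.40) and Ctsz (−0.067 without both PBS arrays or all 4 arrays labelled _2010, −0.082 within _2008, −0.051 within _2013). Between DAP12KO and UT, Ctsz was at 0.030 with the mean over probe sets. The genes passing in the difference of the responses, 0, were 1 with no filter, 1 with the mean over probe sets and 11 with array weights. Leaving out the LPS or the PBS array of _2008, or of _2013, takes the same year out of the difference between LPS and PBS. With 1 array left out in turn, the genes passing were 0 without any of the 4 arrays labelled _2010, 79 and 77 without the LPS and the PBS array labelled _2008 and 119 and 120 without those labelled _2013 between LPS and PBS. They ranged from 0 to 6 between DAP12KO and UT (2 without DAP12KO replicate 4 or UT replicate 6, 4 without UT replicate 1, 6 without DAP12KO replicate 5), and from 0 to 18 in the difference of the responses (9 without either array labelled _2008, 18 without the LPS or PBS array labelled _2013). The lysosomal genes passing ranged from 0 to 1 in the first comparison (Lgmn) and from 0 to 1 in the second (Acp5). The cause was not tested. The 24 genes with several probe sets disagreed in sign for 6 genes between LPS and PBS and for 13 between DAP12KO and UT, a comparison chosen after seeing the data.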
